A study of Mus musculus with 8 samples.

Results

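The genes described here encode enzymes that oxidise, hydrolyse or conjugate foreign compounds and small endogenous molecules: the cytochromes P450 (Cyp), flavin-containing monooxygenases (Fmo), alcohol dehydrogenases (Adh), aldehyde dehydrogenases (Aldh), aldehyde oxidases (Aox), carboxylesterases (Ces) and UDP-glucuronosyltransferases (Ugt). They were chosen by symbol (the family name followed by a digit). Cyp51 of cholesterol synthesis, the retinoic acid-forming Aldh1a1, Aldh1a2 and Aldh1a3, and pseudogene names were left out. The rule took 174 of the 25509 mouse genes counted, and no expression value entered it. The genes were compared between CD249+ and CD249− lung fibroblasts of wild-type mice of strain C57Bl6/J. CD249 is the surface aminopeptidase encoded by Enpep. Dissociated lung cells without the leukocyte marker CD45, the epithelial marker CD326 or the endothelial marker CD31 were sorted on CD249, and both fractions were taken from each of the same 4 mice (numbered 2, 7, 8 and 10), which gave 4 libraries per group. The labels name no treatment, and the animals' age and sex are not given in the sources used here. The deposited count columns are named Ctrl and LIF, which were matched to CD249− and CD249+ through the sample titles and descriptions. The labels do not explain these 2 abbreviations.

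Enzymes of this kind act in series. P450s, which are haem proteins that receive electrons from P450 oxidoreductase, and flavin-containing monooxygenases, which oxidise nitrogen and sulphur atoms with NADPH, add or expose a reactive group. Dehydrogenases, aldehyde oxidases and esterases process the alcohols, aldehydes and esters, and conjugating enzymes such as the glucuronosyltransferases attach a polar group for export. Many of the same families also handle fatty acids, sterols, steroids and retinoids. The lung is known for high levels of Cyp4b1, Cyp2f2 and the flavin-containing monooxygenases Fmo1 and Fmo2, and its club cells are known for a high P450 content.

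Library totals ran from 23011383 to 31906414 estimated counts, and 66 to 75 of the enzyme genes had a count in each library. Enpep stood at 5.13 to 17.3 CPM (counts scaled to a common library total) in the CD249− libraries and at 175 to 329 CPM in the CD249+ libraries, as the labels of the sort say. Alveolar fibroblast markers (10 genes) summed to 281 to 401 CPM in CD249− and 3467 to 6351 CPM in CD249+ libraries, pericyte markers (8 genes) to 165 to 282 and 745 to 1056 CPM. Despite the CD31 gate, 10 endothelial markers summed to 10912 to 14541 CPM in CD249− and 3476 to 6550 CPM in CD249+ libraries. Adventitial fibroblast markers (10 genes) summed to 3746 to 6085 CPM in CD249− and 3002 to 6846 CPM in CD249+ libraries. The name fibroblasts is that of the labels, and all levels given below are those of a whole mixed fraction. Alveolar type 2 markers (8 genes) reached 11460 CPM in the CD249+ library from mouse 10, against 576 to 1304 CPM in the other CD249+ libraries. Hepatocyte markers were at or near 0, at most 0.779 CPM in sum, and Ttr, Serpina1c and Fgb had no count.

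More of the enzyme genes were higher than lower in CD249+ fibroblasts. Of the 59 that had enough counts for a test, 26 were called at an adjusted p under 0.05 by edgeR's quasi-likelihood test, which is 44.1% of them, against 30.8% of all 14524 genes tested. The 21 higher genes are to be read against a background of 16.9% of all genes, and the 5 lower ones against 13.9%. The risers were led by Cyp2e1, Ces1d, Cyp46a1, Cyp7b1, Adh7 and Adh1, and the fallers were Ces2b, Cyp1a1, Cyp4b1, Fmo1 and Ces2e. In these bulk libraries fewer cells of a type and less RNA per cell cannot be told apart. The median log2 fold change (CD249+ over CD249−, as throughout) was 0.34 over the 59 genes and -0.02 over all genes tested. At least 2-fold differences were called in 13 risers and 5 fallers, against 10.4% and 5.23% of all genes.

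All 26 called genes moved the same way in each of the 4 mice. For 24 of them the CD249+ and CD249− libraries did not overlap, and over the tested genes this held for 29, against 33.6% of all genes. The same direction in all mice was seen in 41 of the 59, against 53% of all genes. Of the 33 genes without a call, 17 had positive and 16 negative fold changes, 7 were at an unadjusted p under 0.05, and 12 stayed under a mean of 5 CPM in both fractions. Among the 46 tested genes with at least 5 CPM in the higher fraction, 20 rose and 5 fell, which is 54.3%, against 36.1% of the 11672 genes with that level. With each mouse as a block in the edgeR fit, which uses the pairing of the fractions by lung, the counts were 24 higher and 9 lower, against 19.3% and 17.1% of all genes in the same fit. All 26 calls were kept, and Adh5, Aldh3a2, Aldh9a1, Cyp26b1, Cyp2s1, Cyp3a13 and Cyp4f18 were added. With libraries scaled by their totals alone, 18 were higher and 9 lower, against 14.5% and 18.5% of all genes. The lower count also moved to 8 without the CD249− library from mouse 2 (11.8% of all genes, beside 18 higher and 15% of all genes), where Cyp2s1 and Cyp4f18 were among the genes that joined it. Without the CD249+ library from mouse 10, the one with the high type 2 markers, 22 of the 26 calls were kept (17 higher and 5 lower, against 13.8% and 10.6% of all genes). Lists of 250 kb neighbours, families and roles below are descriptions and carry no test of their own.

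**Figure D1:**
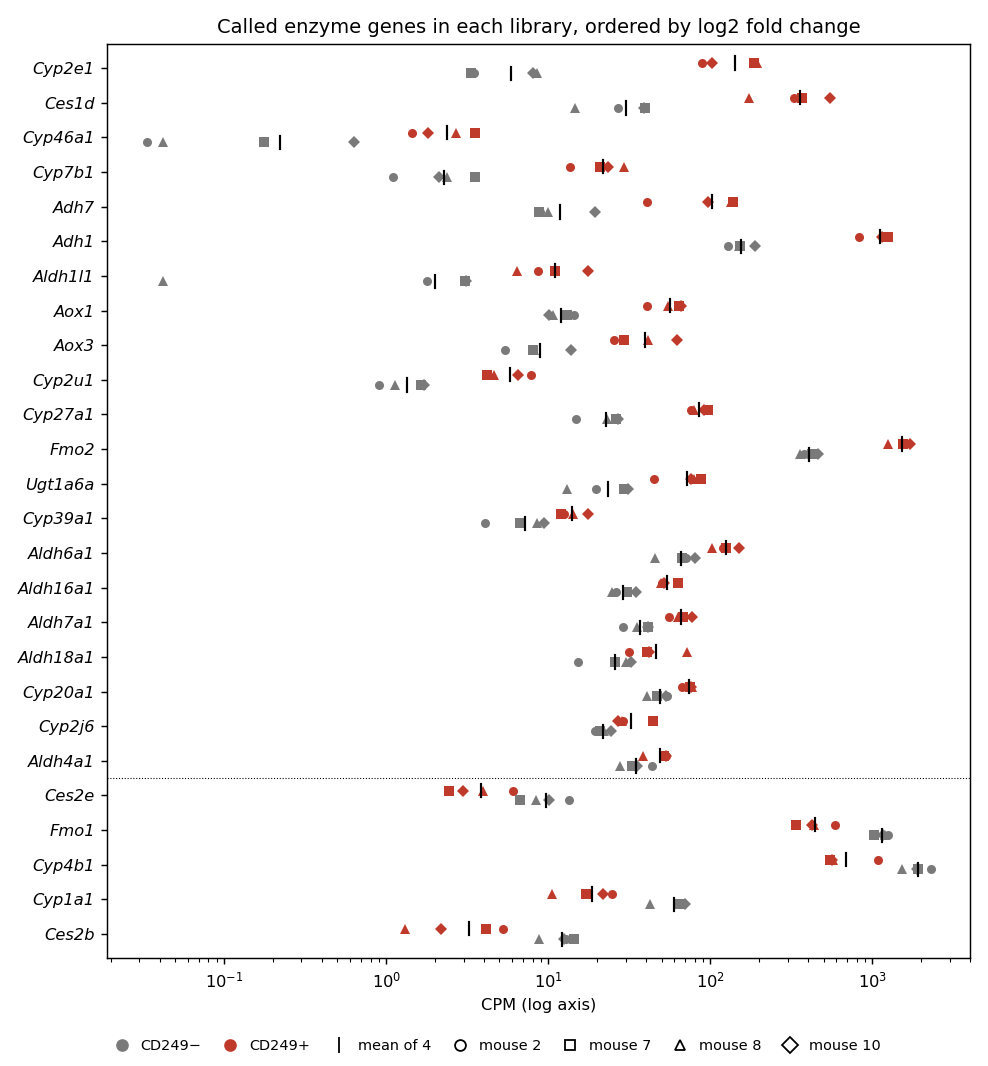
The CPM of each library (log axis) is plotted for the 26 called enzyme genes, ordered by log2 fold change, with CD249− libraries in grey, CD249+ libraries in red, 1 symbol shape per mouse and a vertical bar at each mean of 4. The 21 genes above the dotted line were higher in CD249+ and the 5 below it lower, and the fractions overlap only in Aldh18a1 and Aldh4a1.

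**Figure D2:**
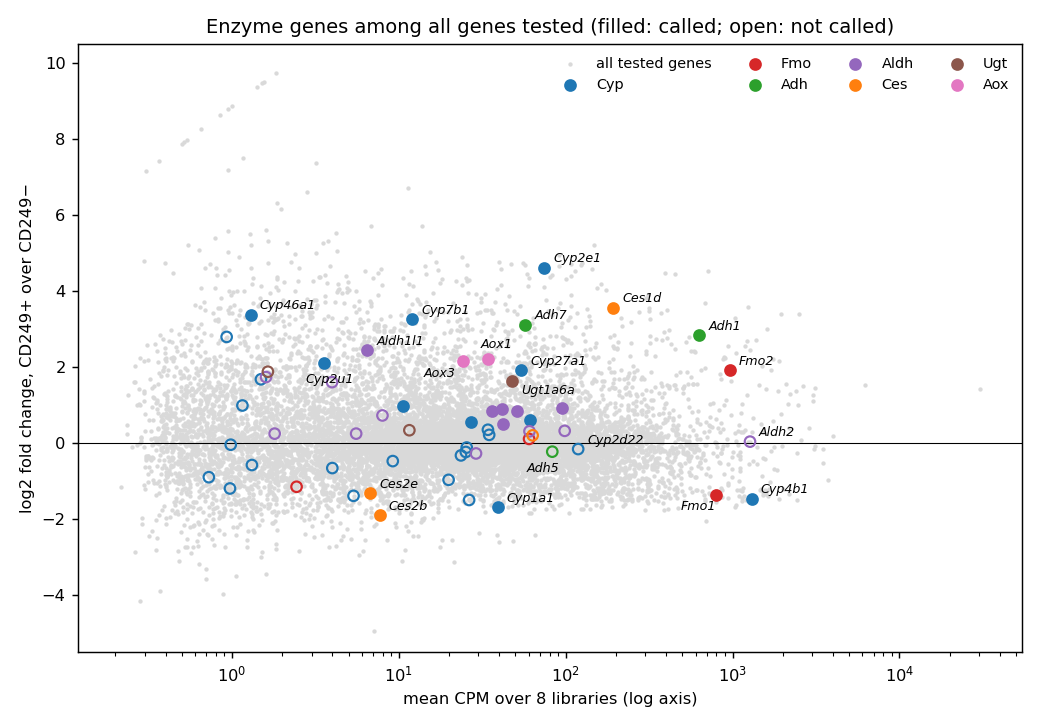
The log2 fold change (CD249+ over CD249−) is plotted against the mean CPM over 8 libraries (log axis) for all 14524 genes tested in grey and the 59 enzyme genes in colour by family, filled where called and open where not. Cyp2e1 has the highest fold change of the enzyme genes at 4.61 and Ces2b the lowest at -1.90, and the most abundant ones, Cyp4b1, Aldh2, Fmo2, Fmo1 and Adh1, lie on both sides of 0.

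The flavin-containing monooxygenases changed places. Fmo2, the form known as the pulmonary one, measured 379, 421, 358 and 460 CPM in the CD249− libraries of mice 2, 7, 8 and 10 and 1574, 1544, 1255 and 1708 CPM in the CD249+ libraries of the same mice. All CD249+ libraries lay above all CD249− libraries, and the log2 fold change was 1.91 (SE 0.14, adjusted p = 1.2e-05). Fmo1 measured 1249, 1020, 1192 and 1156 CPM in CD249− and 587, 337, 435 and 422 CPM in CD249+ libraries. It fell by 1.37 on the log2 scale (SE 0.17, adjusted p = 0.000259), again with no overlap. Per kilobase of exon, the ratio of Fmo1 to Fmo2 was 2.57 ± 0.435 in CD249− and 0.264 ± 0.0670 in CD249+ fibroblasts (SD, n = 4 each), so Fmo1 was the more abundant of the pair in every CD249− library and Fmo2 in every CD249+ library. Summed over the family, the level went from 1621 ± 86.0 to 2030 ± 227 CPM, while the share of Fmo2 in that sum went from 25.0% to 74.9%.

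Fmo5, which acts mostly as a Baeyer-Villiger oxidase, was not called, with 58.1 ± 3.53 CPM in CD249− and 62.6 ± 8.58 CPM in CD249+ (log2 fold change 0.11, adjusted p = 0.520). Fmo4 was low and not called (3.36 ± 1.39 against 1.52 ± 0.724 CPM, log2 fold change -1.15, adjusted p = 0.125). Fmo1 and Fmo2 are neighbours on the minus strand of chromosome 1 (GRCm38 annotation, 162829561 to 162866610 and 162874317 to 162898726), 7707 bases apart, with Fmo4 on one side and Fmo6 on the other. Of the 9 groups of enzyme genes within 250 kb of each other that hold at least 2 tested members, this was the 1 with both a called riser and a called faller.

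**Figure D3:**
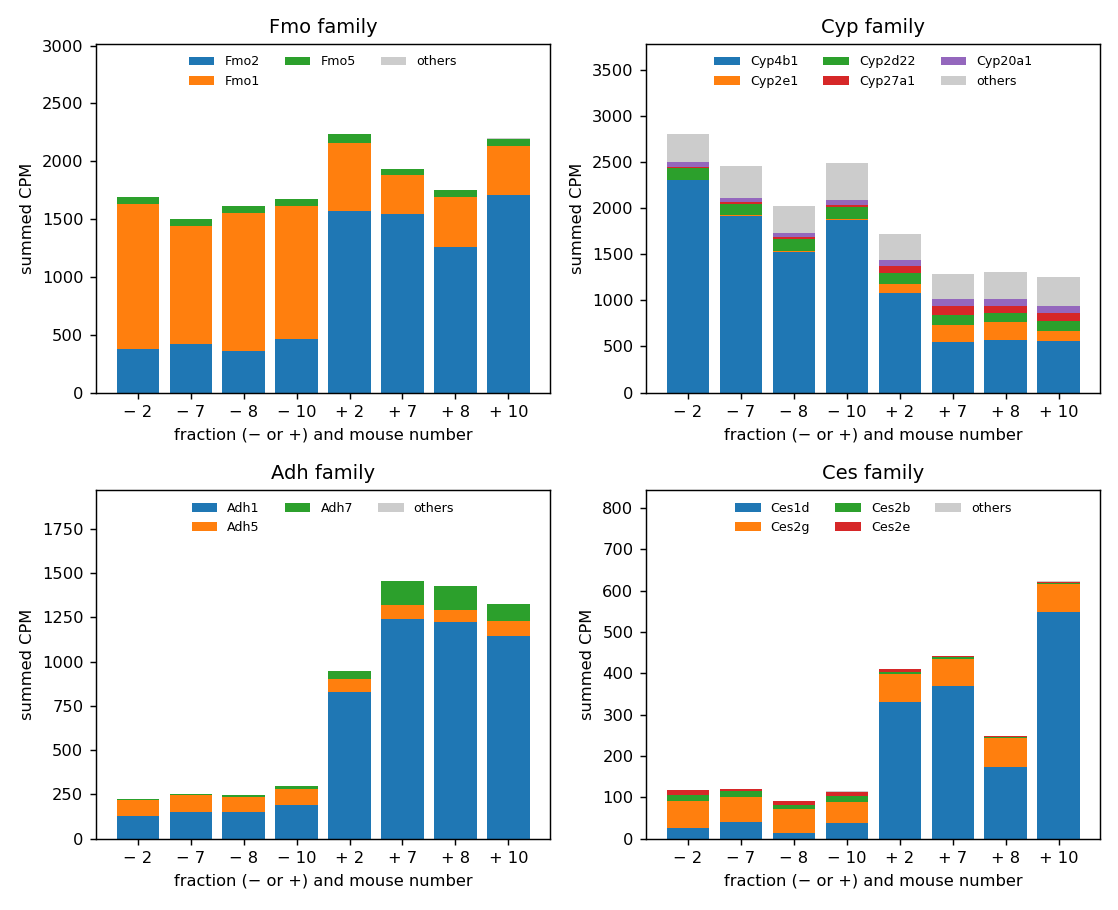
The CPM of the enzyme genes is summed per library (linear axes from 0, libraries named by fraction and mouse) for the Fmo, Cyp, Adh and Ces families, with the most abundant genes of each family in colour. Fmo2 takes 25.0% of the Fmo sum in CD249− and 74.9% in CD249+ libraries, Cyp4b1 77.9% and 48.4% of the Cyp sum, and Ces1d 26.2% and 80.3% of the Ces sum.

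Of the 99 P450 genes 28 were tested, and 8 were higher, 2 lower and 18 not called. The share called was 35.7%, near the 30.8% of all genes tested. The summed P450 level was lower in CD249+ fibroblasts, at 1395 ± 222 CPM against 2443 ± 322 CPM, and no CD249+ library reached the lowest CD249− library (1726 against 2020 CPM). Cyp4b1 made up 77.9% of this sum in CD249− and 48.4% in CD249+. Its mean fell from 1909 to 691 CPM, by more than the sum did, so the other P450s together were higher in CD249+. Cyp2e1 went from 0.25% of the sum to 10.6%.

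Among the 8 tested P450s that chiefly act on foreign compounds, 1 was higher, 1 lower and 6 not called (25% called, against 30.8% of all genes). Cyp2e1, which oxidises ethanol, acetone and small solvents, measured 3.49, 3.33, 8.55 and 8.04 CPM in CD249− and 89.5, 186, 193 and 102 CPM in CD249+ libraries. The fractions were far apart in every mouse, and the mean was 24.4-fold higher in CD249+ (log2 fold change 4.61, SE 0.41, adjusted p = 4.2e-05). Cyp1a1, the classical target of the aryl hydrocarbon receptor, measured 62.4, 65.4, 42.5 and 69.4 CPM in CD249− and 24.8, 17.1, 10.6 and 21.6 CPM in CD249+ libraries. Each CD249+ library was below each CD249− library, and the gene fell by 1.69 on the log2 scale (SE 0.25, adjusted p = 0.000817). Cyp1b1, which belongs to the same receptor's known targets, was not called and spread widely, at 26.6 ± 11 and 24.5 ± 16.8 CPM (log2 fold change -0.12, adjusted p = 0.885).

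Cyp2d22 was not called, at 125 ± 6.50 and 112 ± 10.7 CPM (log2 fold change -0.16, adjusted p = 0.240). Cyp2f2, abundant in club cells, was at 10.7 ± 6.68 and 7.71 ± 5.74 CPM and not called (log2 fold change -0.47, adjusted p = 0.598). The club cell marker Scgb1a1 spread from 11.3 to 59.7 CPM in CD249− and from 3.36 to 27.6 CPM in CD249+ libraries. Cyp2s1 missed the threshold (7.75 ± 2.36 and 2.96 ± 2.15 CPM, log2 fold change -1.39, adjusted p = 0.0551) and passed it with the mouse block (adjusted p = 0.00808). Cyp3a13 was near the detection limit in CD249−, at 0.229 ± 0.270 CPM, against 1.63 ± 1.31 CPM in CD249+. Its call was made with the mouse block alone (adjusted p = 0.149 without and 0.0358 with the block).

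The windows from 250 bases before to 50 bases after the start site are shown for the P450s of this contrast with the most extreme values in either direction (Cyp2e1 and Cyp1a1) and for the most abundant one (Cyp4b1), as RefSeq gives them on GRCm38.p6, 5′ to 3′ on the gene's strand. Capitals mark every match, on either strand, to GCGTG (core of the xenobiotic response element bound by the aryl hydrocarbon receptor), TATAAA (the motif named TATA box) or CCAAT (the motif of that name). A match on the other strand is read there as the reverse complement. The Cyp2e1 window is at chr7:140763569-140763868 on the plus strand, the Cyp1a1 window at chr9:57697363-57697662 on the plus strand and the Cyp4b1 window at chr4:115647672-115647971 on the minus strand.
Cyp2e1: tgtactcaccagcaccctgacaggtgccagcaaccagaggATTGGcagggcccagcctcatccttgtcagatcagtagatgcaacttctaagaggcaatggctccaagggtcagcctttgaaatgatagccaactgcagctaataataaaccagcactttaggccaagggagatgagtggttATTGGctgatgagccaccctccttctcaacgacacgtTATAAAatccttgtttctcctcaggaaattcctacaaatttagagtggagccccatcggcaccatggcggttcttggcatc
Cyp1a1: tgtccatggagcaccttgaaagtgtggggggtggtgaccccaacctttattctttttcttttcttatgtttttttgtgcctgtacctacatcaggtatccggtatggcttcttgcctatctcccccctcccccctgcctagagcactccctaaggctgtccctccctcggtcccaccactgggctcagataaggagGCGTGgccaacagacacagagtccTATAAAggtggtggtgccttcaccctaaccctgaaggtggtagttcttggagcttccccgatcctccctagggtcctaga
Cyp4b1: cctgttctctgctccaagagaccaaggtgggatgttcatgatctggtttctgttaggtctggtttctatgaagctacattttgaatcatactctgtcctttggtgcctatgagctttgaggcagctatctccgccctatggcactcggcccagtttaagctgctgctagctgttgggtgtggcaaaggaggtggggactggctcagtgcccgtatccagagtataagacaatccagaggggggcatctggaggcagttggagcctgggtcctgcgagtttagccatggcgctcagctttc

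Counted from the start site, Cyp2e1 holds TATAAA at -31 to -26 and CCAAT on the other strand at -210 to -206 and -68 to -64. Cyp1a1 holds GCGTG at -54 to -50 and TATAAA at -30 to -25. The Cyp4b1 window holds none of these letters. Over windows of this length, GCGTG occurs on either strand in 35.15% of the 27025 genes in the RefSeq table and in 19 of the 45 tested enzyme genes found there (42.22%). TATAAA occurs in 15.67% of all genes and in 8 of the 45, and CCAAT in 41.06% of all genes and in 29 of the 45. A longer core, TNGCGTG, which overlaps GCGTG, occurs in 5.84% of all genes and in 4 of the 45. These matches describe letters in a short window and say nothing of binding.

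The aryl hydrocarbon receptor gene itself was lower in CD249+. Ahr measured 326, 356, 276 and 307 CPM in CD249− and 154, 115, 105 and 100 CPM in CD249+ libraries, with no overlap (log2 fold change -1.42, SE 0.15, adjusted p = 0.000110). Its partner Arnt rose modestly, from 74.5 ± 2.58 to 101 ± 5.42 CPM (log2 fold change 0.44, adjusted p = 0.00263). Of 13 receptor genes listed (xenobiotic receptors, their retinoid X partners and relatives), 10 were tested, 2 were higher, 1 lower and 7 not called, with a median log2 fold change of 0.48. The share called was 30%, against 30.8% of all genes tested. The other riser was Rxrg, a retinoid X receptor, at 0.413 ± 0.281 and 2.40 ± 0.448 CPM (log2 fold change 2.54, adjusted p = 0.0123). Nr1i2, which encodes the pregnane X receptor of liver and gut, had no count.

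Of 10 tested P450s of fatty acids and eicosanoids, 2 were higher, 1 lower and 7 not called (30% called, against 30.8% of all genes). Cyp4b1, which hydroxylates fatty acids and activates lung toxicants such as ipomeanol, measured 2309, 1921, 1528 and 1876 CPM in CD249− and 1084, 545, 571 and 563 CPM in CD249+ libraries. It fell by 1.47 on the log2 scale (SE 0.24, adjusted p = 0.00148). The fractions did not overlap, and the CD249+ library from mouse 2 lay between the other CD249+ libraries and the lowest CD249− library. Per kilobase of exon, Cyp4b1 was the most abundant enzyme gene in the CD249− fraction at 846 CPM per kb. In the CD249+ fraction it was the second at 306 CPM per kb, behind Adh1.

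Cyp2u1, which hydroxylates long-chain fatty acids, measured 0.897, 1.65, 1.13 and 1.71 CPM in CD249− and 7.87, 4.18, 4.60 and 6.47 CPM in CD249+ libraries. It was higher in CD249+ in every mouse (log2 fold change 2.10, SE 0.38, adjusted p = 0.00242). Cyp2j6, a mouse relative of the arachidonate epoxygenases, rose a little, from 21.7 ± 2.08 to 32.2 ± 8.08 CPM (log2 fold change 0.57, SE 0.17, adjusted p = 0.0314). This call was lost without the CD249− library from mouse 2, 7 or 8 (adjusted p 0.0655 to 0.0738), without the CD249+ library from mouse 7 (log2 fold change 0.38, adjusted p = 0.0615), and without both libraries of mouse 2, 7 or 8 (adjusted p 0.0702 to 0.120, with a log2 fold change of 0.36 without mouse 7). It was also lost with library size scaling (adjusted p = 0.0612). With the mouse block on all libraries Cyp2j6 was called at adjusted p = 0.0336. Cyp4v3, an omega-hydroxylase, was not called (32.2 ± 2.40 and 37.4 ± 5.53 CPM, log2 fold change 0.22, adjusted p = 0.236). Cyp4f18, which inactivates leukotriene B4, was lower without passing the threshold, at 26.3 ± 12.1 and 13.4 ± 3.62 CPM (log2 fold change -0.97, adjusted p = 0.0615), and passed it with the mouse block (adjusted p = 0.0258).

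Of 8 tested P450s of sterols, steroids, vitamin D and retinoic acid, 4 were higher, none was lower and 4 were not called. The share called was 50%, against 30.8% of all genes tested. With the mouse block Cyp26b1 of this list was called lower (log2 fold change -1.60, adjusted p = 6.7e-05). All 4 risers hydroxylate cholesterol or oxysterols, and the calls of Cyp46a1 and Cyp39a1 were lost in some fits given below. Cyp27a1, the mitochondrial sterol 27-hydroxylase, measured 14.7, 26.3, 23 and 27.0 CPM in CD249− and 75.6, 96.6, 79.2 and 91.3 CPM in CD249+ libraries (log2 fold change 1.91, SE 0.19, adjusted p = 7.3e-05). Cyp7b1, the oxysterol 7-alpha-hydroxylase, measured 1.10, 3.54, 2.38 and 2.13 CPM in CD249− and 13.7, 20.8, 29.3 and 23.4 CPM in CD249+ libraries (log2 fold change 3.25, SE 0.37, adjusted p = 0.000166). In both genes the lowest CD249+ library was more than 2-fold above the highest CD249− library.

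Cyp46a1, the cholesterol 24-hydroxylase known from neurons, measured 0.0332, 0.175, 0.0417 and 0.630 CPM in CD249− and 1.45, 3.54, 2.69 and 1.82 CPM in CD249+ libraries (log2 fold change 3.38, SE 0.90, adjusted p = 0.0177). The CD249− values of mice 2 and 8 lie below the level of 3 counts, which was 0.0900 to 0.125 CPM in these libraries, so the size of this change is poorly fixed. The Cyp46a1 call was lost without the CD249− library from mouse 7 (adjusted p = 0.0505), without mouse 7 (adjusted p = 0.105) and without mouse 8 (adjusted p = 0.0788). Cyp39a1, which acts on 24-hydroxycholesterol, went from 7.16 ± 2.36 to 14.1 ± 2.54 CPM (log2 fold change 0.97, SE 0.27, adjusted p = 0.0216). Its call was lost without the CD249− library from mouse 7 (adjusted p = 0.0544), the CD249+ library from mouse 10 (adjusted p = 0.0651) and without mouse 7, 8 or 10 (adjusted p 0.0520 to 0.0744). With the mouse block on all libraries, Cyp46a1 and Cyp39a1 were called at adjusted p = 0.0130 and 0.00654.

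Cyp26b1, which breaks down retinoic acid, measured 61.9, 26.1, 9.89 and 58.0 CPM in CD249− and 25.6, 6.66, 3.18 and 19.7 CPM in CD249+ libraries. The fractions overlapped because the mice differed from each other by several fold, while the CD249+ library was the lower one in each mouse. The log2 fold change was -1.50 (SE 0.68, adjusted p = 0.128) without and -1.60 (SE 0.15, adjusted p = 6.7e-05) with the mouse block. Cyp11a1, Cyp2r1 and Cyp8b1, of steroid, vitamin D and bile acid synthesis, were all under 2 CPM in both means and not called. Of the remaining 2 tested P450s, Cyp20a1, whose substrates are unknown, was higher (48.7 ± 6.36 and 73.7 ± 4.48 CPM, log2 fold change 0.60, SE 0.11, adjusted p = 0.00303), and Cyp2ab1 was not called (log2 fold change -0.90, adjusted p = 0.440).

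The summed level of the alcohol dehydrogenases went from 256 ± 30.4 to 1289 ± 237 CPM, and 2 of the 3 tested genes rose (66.7% called, against 30.8% of all genes). Adh1, which oxidises ethanol and retinol, measured 129, 152, 150 and 188 CPM in CD249− and 829, 1243, 1222 and 1146 CPM in CD249+ libraries. The mean was 7.17-fold higher (log2 fold change 2.84, SE 0.17, adjusted p = 5.1e-06), and at 497 CPM per kb Adh1 was the most abundant enzyme gene of CD249+ fibroblasts per length, against 69.3 CPM per kb in CD249−. Adh7, a class known for oxidising retinol efficiently, measured 8.90, 8.76, 9.97 and 19.5 CPM in CD249− and 40.7, 137, 135 and 97.5 CPM in CD249+ libraries (log2 fold change 3.12, SE 0.41, adjusted p = 0.000393). Neither gene overlapped between the fractions. Adh5, which encodes the glutathione-dependent formaldehyde dehydrogenase of all tissues, was slightly lower without passing the threshold, at 89.6 ± 3.73 and 76.6 ± 4.57 CPM (log2 fold change -0.23, adjusted p = 0.0683), and passed it with the mouse block (adjusted p = 0.0463). The ratio of Adh1 to Adh5 per kilobase was 4.18 ± 0.628 in CD249− and 35.1 ± 6.28 in CD249+. All 5 genes of the family lie together on chromosome 3, with Adh7 (138217760 to 138233382) and Adh1 (138260991 to 138290698) 27609 bases apart at one end of the group.

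Of the 15 tested aldehyde dehydrogenases 6 were higher and 9 were not called (40% called, against 30.8% of all genes). Aldh2, the mitochondrial enzyme that clears acetaldehyde, was the most abundant and was not called, at 1256 ± 152 and 1289 ± 150 CPM (log2 fold change 0.04, SE 0.14, adjusted p = 0.865). It made up 76.5% of the family's sum in CD249− and 68.8% in CD249+. Aldh1l1, the cytosolic 10-formyltetrahydrofolate dehydrogenase, had the largest rise of the family and measured 1.79, 3.05, 0.0417 and 3.12 CPM in CD249− and 8.69, 11, 6.44 and 17.6 CPM in CD249+ libraries (log2 fold change 2.44, SE 0.76, adjusted p = 0.0350). The CD249− value of mouse 8 is below the level of 3 counts. The Aldh1l1 call was lost without the CD249− library from mouse 2 or 7, the CD249+ library from mouse 7 or 10 (adjusted p 0.0522 to 0.0953), and without mouse 2, 7 or 10 (adjusted p 0.0843 to 0.109). With the mouse block on all libraries Aldh1l1 was called at adjusted p = 0.00769.

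The other called aldehyde dehydrogenases rose by less than 2-fold, and all of them but Aldh16a1 are known from amino acid metabolism. Aldh6a1 of valine breakdown went from 65.9 ± 14.6 to 124 ± 20.1 CPM (log2 fold change 0.92, SE 0.18, adjusted p = 0.00341) and Aldh7a1 of lysine breakdown from 36.6 ± 5.76 to 65.9 ± 9.11 CPM (log2 fold change 0.85, SE 0.14, adjusted p = 0.00171). Aldh16a1 went from 29.0 ± 4.46 to 53.7 ± 6.64 CPM (log2 fold change 0.89, SE 0.14, adjusted p = 0.000986). In these 3 genes the fractions did not overlap. Aldh18a1 of proline synthesis (25.9 ± 7.64 and 46.5 ± 17.4 CPM, log2 fold change 0.84, SE 0.29, adjusted p = 0.0492) and Aldh4a1 of proline breakdown (34.8 ± 6.60 and 49.2 ± 7.06 CPM, log2 fold change 0.50, SE 0.16, adjusted p = 0.0385) were called although their fractions overlapped. The Aldh18a1 call was lost without each of the 8 libraries other than the CD249+ library from mouse 2 (adjusted p 0.0501 to 0.137, with a log2 fold change of 0.55 without the CD249+ library from mouse 8) and without mouse 7, 8 or 10 (adjusted p 0.0756 to 0.147). It was also lost with library size scaling (adjusted p = 0.0787) and in limma-voom (adjusted p = 0.0524). The Aldh4a1 call was lost without the CD249− library from mouse 7, 8 or 10, the CD249+ library from mouse 2, 7 or 10 (adjusted p 0.0712 to 0.0940), without mouse 7 or 10 (adjusted p 0.142 to 0.164) and with library size scaling (adjusted p = 0.0682). These fits did not use the pairing. With the mouse block on all libraries, Aldh18a1 and Aldh4a1 were called at adjusted p = 0.00373 and 0.00539.

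Aldh3a2, the fatty aldehyde dehydrogenase, was not called (87.7 ± 11.6 and 110 ± 9.06 CPM, log2 fold change 0.32, adjusted p = 0.0603). It passed with the mouse block (adjusted p = 0.0230) and without the CD249+ library from mouse 2 (adjusted p = 0.0454). Aldh9a1, which acts in carnitine synthesis, was not called either (54.2 ± 8.41 and 67.2 ± 4.0 CPM, log2 fold change 0.31, adjusted p = 0.0826) and passed with the block (adjusted p = 0.0428).

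Both tested aldehyde oxidases were called higher, against 16.9% of all genes tested, and rose by about the same factor. These molybdenum enzymes oxidise aldehydes and nitrogen heterocycles. Aox1 measured 14.4, 13.0, 10.7 and 10.0 CPM in CD249− and 40.9, 64.2, 54.5 and 65.5 CPM in CD249+ libraries (log2 fold change 2.22, SE 0.18, adjusted p = 2.4e-05). Aox3, known mainly from liver and lung, measured 5.45, 8.09, 8.22 and 13.7 CPM in CD249− and 25.4, 29.5, 41.2 and 62.2 CPM in CD249+ libraries (log2 fold change 2.15, SE 0.34, adjusted p = 0.00116). Neither gene overlapped between the fractions, and the ratio of Aox1 to Aox3 per kilobase was 1.27 ± 0.652 in CD249− and 1.25 ± 0.389 in CD249+. The genes follow each other on the plus strand of chromosome 1 (58029931 to 58106413 and 58113130 to 58200698) with 6717 bases between them. They were 1 of 2 neighbour groups with at least 2 risers, among the 9 with at least 2 tested members, the other being Adh7 with Adh1. The farther genes of the same group, Aox4 and Aox2, had too few counts for the test, at most 0.123 CPM in the mean of a fraction.

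The start-site windows of this pair, which moved together, are shown with the same capitals, at chr1:58029719-58030018 for Aox1 and chr1:58112886-58113185 for Aox3, both on the plus strand.
Aox1: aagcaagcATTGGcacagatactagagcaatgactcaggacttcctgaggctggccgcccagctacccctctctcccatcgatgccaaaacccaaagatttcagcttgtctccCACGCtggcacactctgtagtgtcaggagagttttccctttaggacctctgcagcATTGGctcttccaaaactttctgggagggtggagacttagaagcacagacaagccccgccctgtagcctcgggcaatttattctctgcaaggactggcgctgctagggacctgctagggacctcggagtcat
Aox3: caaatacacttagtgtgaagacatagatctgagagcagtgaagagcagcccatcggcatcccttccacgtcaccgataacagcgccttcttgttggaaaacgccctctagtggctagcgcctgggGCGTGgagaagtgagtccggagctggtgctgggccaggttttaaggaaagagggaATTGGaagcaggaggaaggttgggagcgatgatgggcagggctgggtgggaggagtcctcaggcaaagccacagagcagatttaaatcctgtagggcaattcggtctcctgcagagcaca

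Aox1 holds GCGTG on the other strand at -137 to -133 and CCAAT on the other strand at -242 to -238 and -82 to -78. Aox3 holds GCGTG at -125 to -121 and CCAAT on the other strand at -70 to -66. Neither window holds TATAAA.

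Carboxylesterases moved both ways, with 1 of the 4 tested genes higher, 2 lower and 1 not called (75% called, against 30.8% of all genes). Ces1d, a lipid-hydrolysing esterase of lung, liver and fat also known as triacylglycerol hydrolase, measured 26.9, 39.5, 14.7 and 38.8 CPM in CD249− and 330, 370, 174 and 549 CPM in CD249+ libraries. Its lowest CD249+ library was well above the highest CD249− library, and the mean was 11.8-fold higher (log2 fold change 3.57, SE 0.40, adjusted p = 0.000162). Ces2b measured 12.9, 14.4, 8.72 and 12.5 CPM in CD249− and 5.27, 4.14, 1.31 and 2.19 CPM in CD249+ libraries, a fold change of -1.90 on the log2 scale (SE 0.41, adjusted p = 0.00605). Ces2e, its close relative, measured 13.3, 6.72, 8.38 and 10.1 CPM in CD249− and 6.06, 2.44, 3.96 and 2.98 CPM in CD249+ libraries (log2 fold change -1.32, SE 0.34, adjusted p = 0.0156). Both Ces2 genes were lower in each mouse without overlap. The Ces2e call was lost without mouse 8 (adjusted p = 0.0604) or mouse 10 (adjusted p = 0.0868). With the mouse block on all libraries it was kept (adjusted p = 0.00351).

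Ces2g, the remaining tested esterase, was not called (58.9 ± 5.83 and 67.8 ± 2.21 CPM, log2 fold change 0.20, adjusted p = 0.143). The ratio of Ces1d to Ces2g per kilobase was 0.781 ± 0.346 in CD249− and 7.95 ± 3.49 in CD249+. Ces1d lies on chromosome 8 (93166068 to 93197838) in a group of 9 esterase genes of which no other was tested, and Ces2b, Ces2e and Ces2g lie in a second group on the same chromosome. Esterase genes within these groups are near copies of each other, so the division of reads between them is uncertain.

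**Figure D4:**
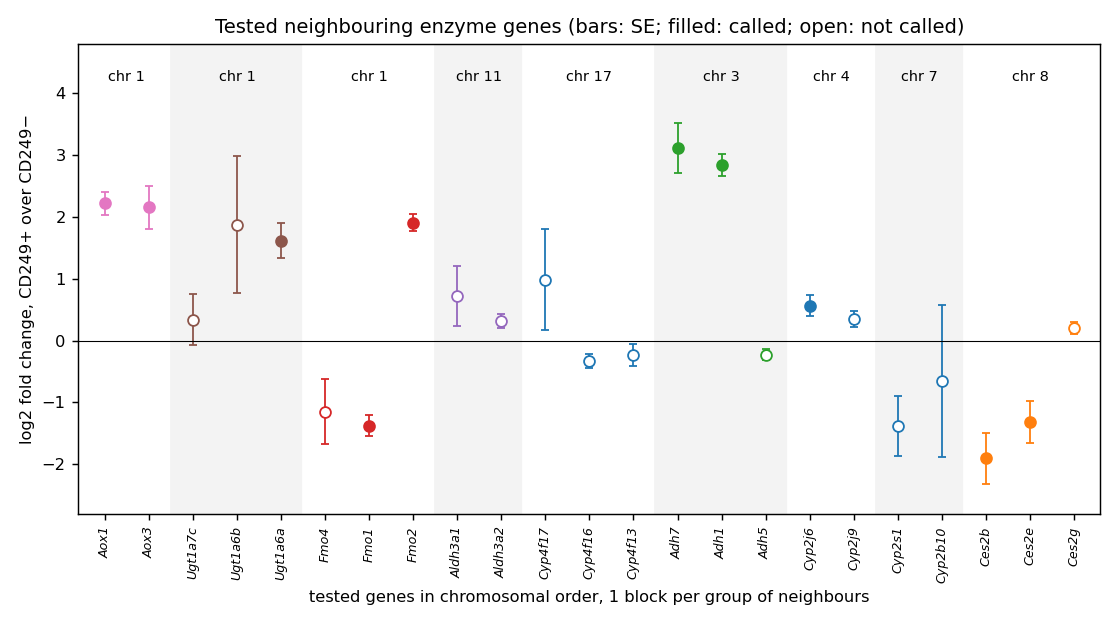
The log2 fold change (CD249+ over CD249−, bars are the standard error) is plotted for the tested genes of each group of neighbouring enzyme genes with at least 2 of them, in chromosomal order, filled where called and open where not. Aox1 and Aox3, and Adh7 and Adh1, lie between 2.15 and 3.12, Ces2b and Ces2e at -1.90 and -1.32, and the Fmo group holds Fmo1 at -1.37 beside Fmo2 at 1.91.

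Of 22 glucuronosyltransferase genes 15 had no count and 3 were tested, all of the Ugt1a group. Ugt1a6a, which conjugates small phenols, measured 19.7, 29.2, 13.1 and 31.2 CPM in CD249− and 44.6, 87.8, 78.9 and 75.5 CPM in CD249+ libraries, with no overlap (log2 fold change 1.62, SE 0.29, adjusted p = 0.00217). Ugt1a7c (10.2 ± 4.95 and 12.9 ± 3.22 CPM, log2 fold change 0.34, adjusted p = 0.580) and Ugt1a6b (0.698 ± 0.811 and 2.59 ± 1.86 CPM, log2 fold change 1.88, adjusted p = 0.236) were not called. The Ugt1a genes share their last exons, so reads there cannot be assigned to 1 of them. Their counts summed gave a log2 fold change of 1.34 (SE 0.26, adjusted p = 0.00311), an alternative added after the data were seen.

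Most of the enzyme genes were not or barely detected in either fraction. No count was found for 80 of the 174, among them 52 P450s, 15 glucuronosyltransferases and 9 carboxylesterases, which allows a level of up to 0.0900 to 0.125 CPM per library. A further 35 had a count but stayed under 1 CPM in the mean of each fraction. The groups without a tested member include the 14 Cyp2c genes on chromosome 19, the 8 Cyp3a genes of the larger group on chromosome 5 and the 10 Ugt2 genes on the same chromosome, families best known from liver. The most abundant enzyme genes per kilobase of exon were Cyp4b1, Aldh2 (245 CPM per kb), Fmo1 (183), Fmo2 (72.1) and Adh1 in the CD249− fraction. In the CD249+ fraction they were Adh1, Cyp4b1, Fmo2 (271 CPM per kb), Aldh2 (251), Ces1d (150), Fmo1 (70.6) and Cyp2e1 (66.1).

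The enzymes that serve or follow these families were read from 4 more lists. The share called was 37.5% for electron donors and haem and 37.5% for drug transporters. It was 42.9% for other oxidases, reductases and hydrolases and 69.2% for conjugating enzymes, against 30.8% of all genes tested. Of 16 tested genes of electron donors and haem 4 were higher, 2 lower and 10 not called, with a median log2 fold change of 0.04. Por, the reductase that supplies electrons to microsomal P450s, measured 215, 167, 203 and 221 CPM in CD249− and 358, 296, 318 and 480 CPM in CD249+ libraries, higher in each mouse without overlap (log2 fold change 0.85, SE 0.16, adjusted p = 0.00312). Fech, which inserts iron into haem, rose as well (log2 fold change 0.63, adjusted p = 0.00276), and Cyb5a, cytochrome b5, fell by 0.41 on the log2 scale (adjusted p = 0.00671). Por was thus higher in the fraction with the lower summed P450 level. Cyp4b1 alone made up 77.9% of that sum in CD249− and 48.4% in CD249+, and the other P450s together were higher in CD249+. By gene, 8 of the 28 tested P450s were called higher and 2 lower in CD249+ (35.7% called, near the 30.8% of all genes tested).

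Of 21 tested other oxidases, reductases and hydrolases, 7 were higher, 2 lower and 12 not called (median log2 fold change 0.41). Hsd11b1, which regenerates active glucocorticoid, went from 51.7 ± 16.4 to 578 ± 120 CPM (log2 fold change 3.48, adjusted p = 1.3e-05). The monoamine oxidases went opposite ways, Maob from 40.2 ± 5.23 to 101 ± 5.94 CPM (log2 fold change 1.33, adjusted p = 2.8e-05) and Maoa from 104 ± 7.61 to 53.5 ± 5.08 CPM (log2 fold change -0.96, adjusted p = 0.000106).

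Of 13 tested conjugating enzymes 8 were higher, 1 lower and 4 not called (median log2 fold change 0.78). Inmt, an N-methyltransferase of indole amines that is abundant in lung, measured 291, 515, 274 and 656 CPM in CD249− and 4083, 4811, 2945 and 6337 CPM in CD249+ libraries (log2 fold change 3.39, SE 0.35, adjusted p = 1.0e-04). Nnmt, which methylates nicotinamide, rose too, by a log2 fold change of 1.92 (adjusted p = 0.000592). Of 16 tested drug transporters 2 were higher, 4 lower and 10 not called (median log2 fold change 0.04). Slc22a3, an organic cation transporter, was at 0.203 ± 0.234 CPM in CD249− and at 22.4 ± 7.43 CPM in CD249+ (adjusted p = 0.000170). The efflux pump gene Abcb1a (log2 fold change -1.36, adjusted p = 0.000401) and the prostaglandin transporter gene Slco2a1 (log2 fold change -1.26, adjusted p = 0.00210) fell.

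**Figure D5:**
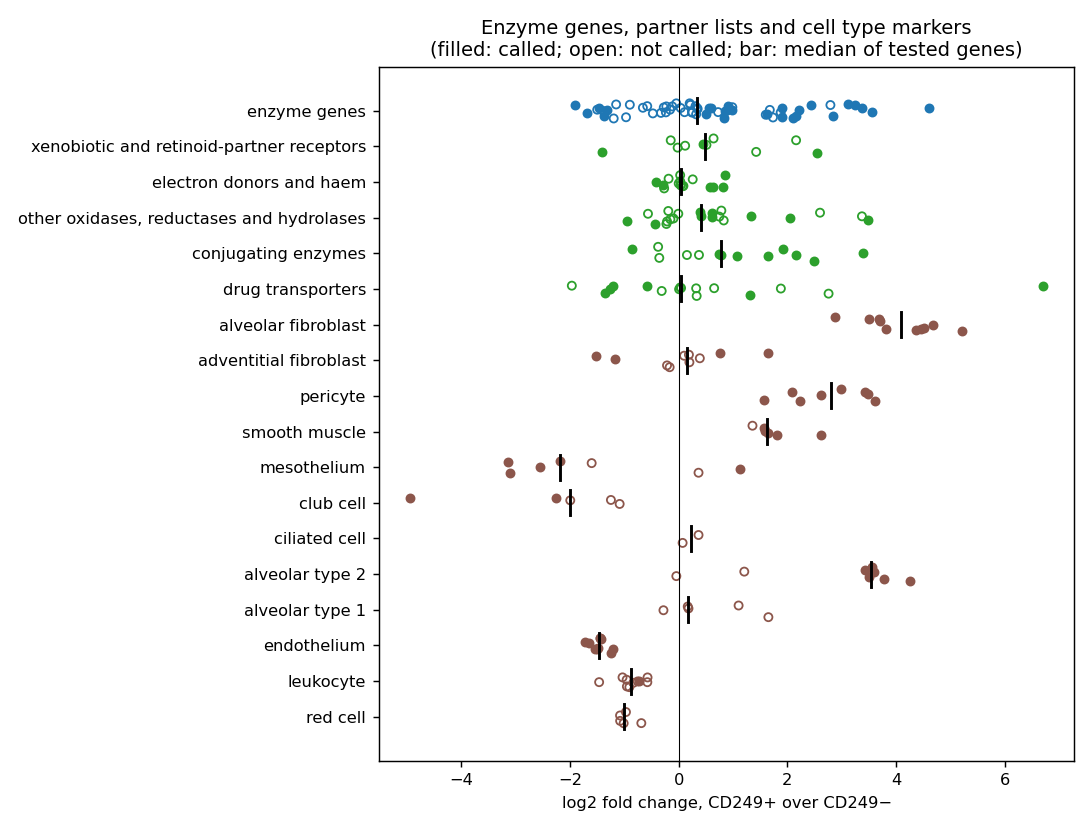
The log2 fold change (CD249+ over CD249−) of each tested gene is plotted for the enzyme genes, the 5 lists of partner genes and the cell type marker lists, filled where called, with a bar at each median. The enzyme genes spread over both directions around a median of 0.34, while all 10 alveolar fibroblast markers lie at or above 2.87 and all 10 endothelial markers at or below -1.21.

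Markers of other cell types moved with the same contrast. All 10 endothelial markers were called lower (log2 fold change -1.73 to -1.21, median -1.47). The called fallers Cyp4b1 (-1.47), Fmo1 (-1.37), Cyp1a1 (-1.69) and Ces2e (-1.32) lay in that range, as did Ahr (-1.42). Ces2b (-1.90) lay below it. The CD249+ library from mouse 2 had the highest endothelial sum of that fraction (6550 CPM, against 3476 to 3809 CPM in the others) and also the highest values of Cyp4b1, Fmo1, Cyp1a1, Ces2b and Ces2e. Without that library all 5 lower calls were kept. The endothelial sums then still lay apart, at 3476 to 3809 CPM in CD249+ and 10912 to 14541 CPM in CD249− libraries. That fit therefore does not bear on the part of endothelial cells. All 10 alveolar fibroblast markers (median 4.08) and all 8 pericyte markers (median 2.81) were called higher, as were 6 of 8 alveolar type 2 markers (median 3.53), with groups that overlapped in every one of the latter. Of 6 smooth muscle markers 5 were called higher (median 1.62, sums of 146 to 653 CPM in CD249− and 739 to 1487 CPM in CD249+ libraries). Of 10 adventitial fibroblast markers 2 were higher, 2 lower and 6 not called (median 0.15). Mesothelial markers were lower (4 of 7, with 1 higher), and 2 of 5 tested club cell markers were lower. Leukocyte markers all had negative log2 fold changes (-1.46 to -0.57, median -0.87), and 1 of the 10 was called lower. Their sums were 379 to 1028 CPM in CD249− and 317 to 487 CPM in CD249+ libraries. The part of these cell types in the values of the enzyme genes was not tested.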

How the data were processed

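RNA of 8 libraries (4 CD249+, 4 CD249−) was turned into oligo(dT)-primed cDNA with SMART-Seq V4 (10 ng of input), made into Nextera XT libraries and read as single 75 bp reads, per the labels' protocols. These libraries do not mark strand, so reads of a gene and of one that overlaps it on the opposite strand look alike. No molecular identifiers were used, and amplified copies are not independent. The deposited values are estimated counts per gene, 12.0% of them not whole (7.97% for the enzyme genes), with 92 spike-in entries at 0 that were left out. The submitters' processing notes list R 3.6.3, DESeq2 1.26.0, RSEM 1.2.28, STAR 2.6.1 and bcl2fastq 2.20 with no roles, and the human build GRCh38, although the identifiers are mouse genes. The build behind the counts is therefore not given in the sources used here. Estimated counts divide shared reads among near copies, whose values are uncertain.

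Counts were rounded, and genes were kept by filterByExpr of edgeR 4.0.16 (R 4.3.3), which left 14524 of 18552 genes with a count. CD249+ was compared with CD249− by edgeR's two-sided quasi-likelihood F test with TMM scaling and no term besides the group, and p-values were adjusted over all 14524 genes by the Benjamini-Hochberg method. Values are CPM on TMM-scaled totals, errors are SD over 4 libraries, and the test was checked on simulated counts. The level of 3 counts (0.0900 to 0.125 CPM) covers counting error only. Coordinates and exon lengths are from GENCODE M21 on GRCm38, in which 98.99% of identifiers were found with versions ignored. Start-site windows are from RefSeq (GRCm38.p6), which held 138 of the 174 enzyme genes and 19 of the 26 called ones.

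Both fractions of a mouse come from the same lung. Their deviations from the group means correlated at 0.132 to 0.285 within mice, against -0.212 to 0.0515 between mice, in correlations taken across genes, so the mouse numbers were taken to pair the libraries. The labels give the mouse of each library but no statistical model. The group-only fit was kept as the main result, so its SEs and p-values do not use the pairing. The mouse block is given beside it where it changed a call or where leaving out a library or mouse lost a call. Alternatives were the mouse block, DESeq2 1.42.0 size factors and Wald test, library size scaling, no low-count filter, limma-voom (limma 3.58.1), and fits without each library, each mouse and pairs of mice.

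Per-library values were followed for called genes with at least 1 CPM in the higher fraction and for up to 2 abundant genes without a call per family, and for up to 3 called genes per partner list. A few genes that these rules take are not reported here. Other genes (such as Cyp1b1, Cyp26b1 and Cyp2f2) were named after their values were seen. The genes, lists and rules were chosen with earlier results of these data known.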

Additional observations from a re-analysis of the deposited data

Results flagged for a closer look

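In 7 of the 72 groups of 4 libraries looked at, 1 library stood far from the others by Dixon's criterion, which chance meets in about 1 of 20 groups. Adh7 reached 19.5 CPM in the CD249− library from mouse 10, against 8.76 to 9.97 CPM in the other CD249− libraries. Cyp4b1 reached 1084 CPM in the CD249+ library from mouse 2, against 545 to 571 CPM, and that library also had the highest endothelial marker sum of its fraction. In the CD249+ library from mouse 7, Aldh16a1 reached 63.5 CPM (49.4 to 51.6 CPM in the others) and Cyp2j6 44.3 CPM (27.1 to 28.8 CPM). Aldh4a1 was low in the CD249+ library from mouse 8, at 38.6 CPM against 51.6 to 53.4 CPM. Aldh2 was low in the CD249− library from mouse 8, at 1030 CPM against 1312 to 1366 CPM, and Ugt1a7c in the CD249− library from mouse 2, at 2.82 CPM against 12.2 to 13.0 CPM.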

How the results depend on the processing

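The 21 higher and 5 lower calls were recomputed under 20 alternatives. The number of lower genes moved to 9 with the mouse block, where 24 were higher (17.1% and 19.3% of all genes), and to 9 with library size scaling, where 18 were higher (18.5% and 14.5%) and the median of all genes shifted by -0.10. It moved to 8 with DESeq2's Wald test, where 22 were higher (16.2% and 19.7%). Library size scaling lost Aldh18a1, Aldh4a1 and Cyp2j6, and limma-voom lost Aldh18a1. Leaving out 1 library or 1 mouse gave 15 to 21 higher and 4 to 8 lower genes, against 12.2% to 16.8% and 8.24% to 13.4% of all genes. Mice 2 and 10 alone gave 7 higher and 2 lower genes, against 3.88% and 0.668% of all genes, in a fit with 2 libraries per group. Of the 26 calls, 8 (Adh1, Aox1, Ces1d, Cyp1a1, Cyp27a1, Cyp2e1, Cyp7b1 and Fmo2) were kept under every alternative and 19 under every one that left out at most 1 mouse. None of the 26 changed direction. Aldh2, which was not called, turned to -0.058 with library size scaling and ran from -0.0497 (without the CD249− library from mouse 8) to 0.118 over fits that left out 1 library or mouse, and Fmo5 to -0.0032 in mice 7 and 8; the cause was not tested. The block changed no call other than the 7 it added. Genes under about 1 CPM, such as Cyp46a1 in CD249−, are limited by depth, and n is 4 throughout.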
